A study of Mus musculus and Homo sapiens with 65 samples.

Results

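The translation initiation factor genes of late 2-cell mouse embryos are described here. They are the genes whose symbol begins with Eif and a digit from 1 to 6. Of 32287 genes in each expression table, 59 symbols fit that pattern. The 4 whose names end in -ps, the mark of a pseudogene, were left out, which leaves 55 members. GENCODE M21 lists 54 of them as protein coding. The other, Eif2c5, carries an older name for Argonaute proteins and is listed there as a non-coding RNA. Eif2s3y is not among the 59 symbols, so it has no values here.

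RNA-seq levels came from 9 libraries of late 2-cell embryos in 4 groups. There were 2 libraries of embryos treated with alpha-amanitin, a toxin that blocks RNA polymerase II; neither its dose nor its route is given in the sources used here. A further 2 libraries came from embryos injected with morpholinos against both Kdm5a and Kdm5b, which encode demethylases of lysine 4 on histone H3. The 2 injected controls received mismatch control morpholinos, which carry base mismatches. The last 3 were wild-type. Per the labels, injections were made in zygotes at 0.5 days post coitum with fluorescein-tagged morpholinos, and embryos were then cultured in G1 plus medium to the late 2-cell stage. The labels do not say whether the replicates of a group came from separate collections, so the spread between them may be technical in part. Each library is a bulk sample, in which fewer cells with a transcript and less of it per cell cannot be told apart.

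Initiation factors bring the ribosome to the start codon of an mRNA. eIF2 carries the initiator tRNA to the small ribosomal subunit, eIF3 is the large scaffold that holds the small subunit and the other factors together, and the eIF4 factors bind the mRNA cap, link it to the poly(A) tail and unwind the leader. Fully grown mouse oocytes stop transcribing and rely on stored mRNAs, so the embryo starts with maternal copies of these transcripts. It then makes its own when its genome is activated, broadly so at the late 2-cell stage. Eif4e1b encodes an oocyte-enriched relative of the cap-binding protein eIF4E.

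Values are FPKM as the authors deposited them, a fragment count divided by the library total and by transcript length. FPKM is scaled by length, so levels can be set beside each other between genes, but each value is a share of its own library. Changes are given on the log2(FPKM + 1) scale, each with its standard error (SE), tested with limma over 13137 genes at 1 FPKM or more in at least 2 libraries, with calls made at an adjusted p (Benjamini-Hochberg) under 0.05. The added 1 shrinks these differences for genes with little RNA. Read depth is unknown. The median half-width of the deposited FPKM bounds, over members at 1 FPKM or more, was 8.23% to 15.4% of the FPKM per library.

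The eIF3 subunit genes held the largest group of members that fell with alpha-amanitin, and RefSeq promoter sequence (GRCm38.p6) was available for 10 of the 14. Of these 10, 5 held CCGGAAG, the core motif of ETS transcription factors, read on both strands, within the 250 bases before and 50 after the annotated start. Those 5 were Eif3c and Eif3g, which fell, and Eif3d, Eif3l and Eif3m, which were not called. The core was absent from Eif3a, Eif3b, Eif3f and Eif3j1, which fell, and from Eif3k, which was not called. The stretch from 100 bases before the RefSeq start up to that start, or up to the start in the files where it lies further upstream, is shown, 5′ to 3′ on the gene's strand with the ETS core in capitals, for a pair of eIF3 genes that fell with alpha-amanitin (Eif3c and Eif3g) and a pair that was not called (Eif3d and Eif3l). They lie at chr7:126566412-126566466 on the minus strand for Eif3c, at chr9:20898601-20898690 on the minus strand for Eif3g, at chr15:77970825-77970924 on the minus strand for Eif3d and at chr15:79075123-79075222 on the plus strand for Eif3l.
Eif3c: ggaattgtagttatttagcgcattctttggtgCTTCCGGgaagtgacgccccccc
Eif3g: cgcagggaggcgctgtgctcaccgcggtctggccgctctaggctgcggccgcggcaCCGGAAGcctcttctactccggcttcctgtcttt
Eif3d: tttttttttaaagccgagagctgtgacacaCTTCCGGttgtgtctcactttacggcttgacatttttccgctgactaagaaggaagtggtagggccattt
Eif3l: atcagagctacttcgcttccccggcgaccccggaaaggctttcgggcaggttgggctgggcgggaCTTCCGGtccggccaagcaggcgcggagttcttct
The core shown begins 68 bases before the RefSeq start in Eif3c, 44 in Eif3g, 70 in Eif3d and 35 in Eif3l. The start in the files lies 45 bases further upstream in Eif3c and 10 in Eif3g, and is the same in Eif3d and Eif3l. A second core of Eif3c, 34 bases before the RefSeq start, lies after the start in the files and is not shown. Over all members, 43 had a promoter entry, and 14 of them (32.6%) held the ETS core, as did 9.12% of the 27025 genes in the table and 18.1% of the 8852 in it that were tested for expression. The core stood in 5 of 20 members that fell with alpha-amanitin and in 8 of 20 tested members that were not called. CCAAT stood in 13 members (30.2%) against 39.8% of tested genes, and TATAAA in 3 members (6.98%) against 6.98% of tested genes, read on both strands. A match of letters is a description and not a bound site.

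With alpha-amanitin, the genes of most eIF3 subunits, of all eIF4A helicases, of Eif4e, Eif4e2 and Eif6 fell, while Eif4e1b and Eif1b rose and genes such as Eif5a, Eif1 and Eif2s2 were not called. Of the 55 members, 52 passed the filter on low values. Of those tested, 27 fell, where 25.1% of all genes tested fell, and 2 rose, where 4.31% of all genes rose, and 23 were not called; 30 had an unadjusted p under 0.05, where 40.4% of all genes did. The median log2 difference was -1.22 over the tested members and -0.56 over all genes tested. The groups did not overlap in 32 lower members (41.1% of all genes) and 3 higher ones (13.4% of all genes). The filter bears on these counts: 50 of the tested members were at 1 FPKM or more in all 3 wild-type libraries and only 31 in both alpha-amanitin libraries, so they are values of the tested genes and not of all members. Quantile normalization moved the median of all genes from -0.56 to 0.17 and the split of all calls from 85.4% to 51.3% lower. Under it 17 members fell and 3 rose, where 1806 of all 13137 genes fell and 1716 rose, with a member median of -0.64. Relative to the median of all genes, the member median was -0.66 as deposited and -0.81 after quantile normalization. The 10 calls lost in that setting were those of Eif1ad, Eif2ak3, Eif2s1, Eif3b, Eif3i, Eif3j1, Eif3j2, Eif4e, Eif4ebp1 and Eif5b.

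**Figure D1:**
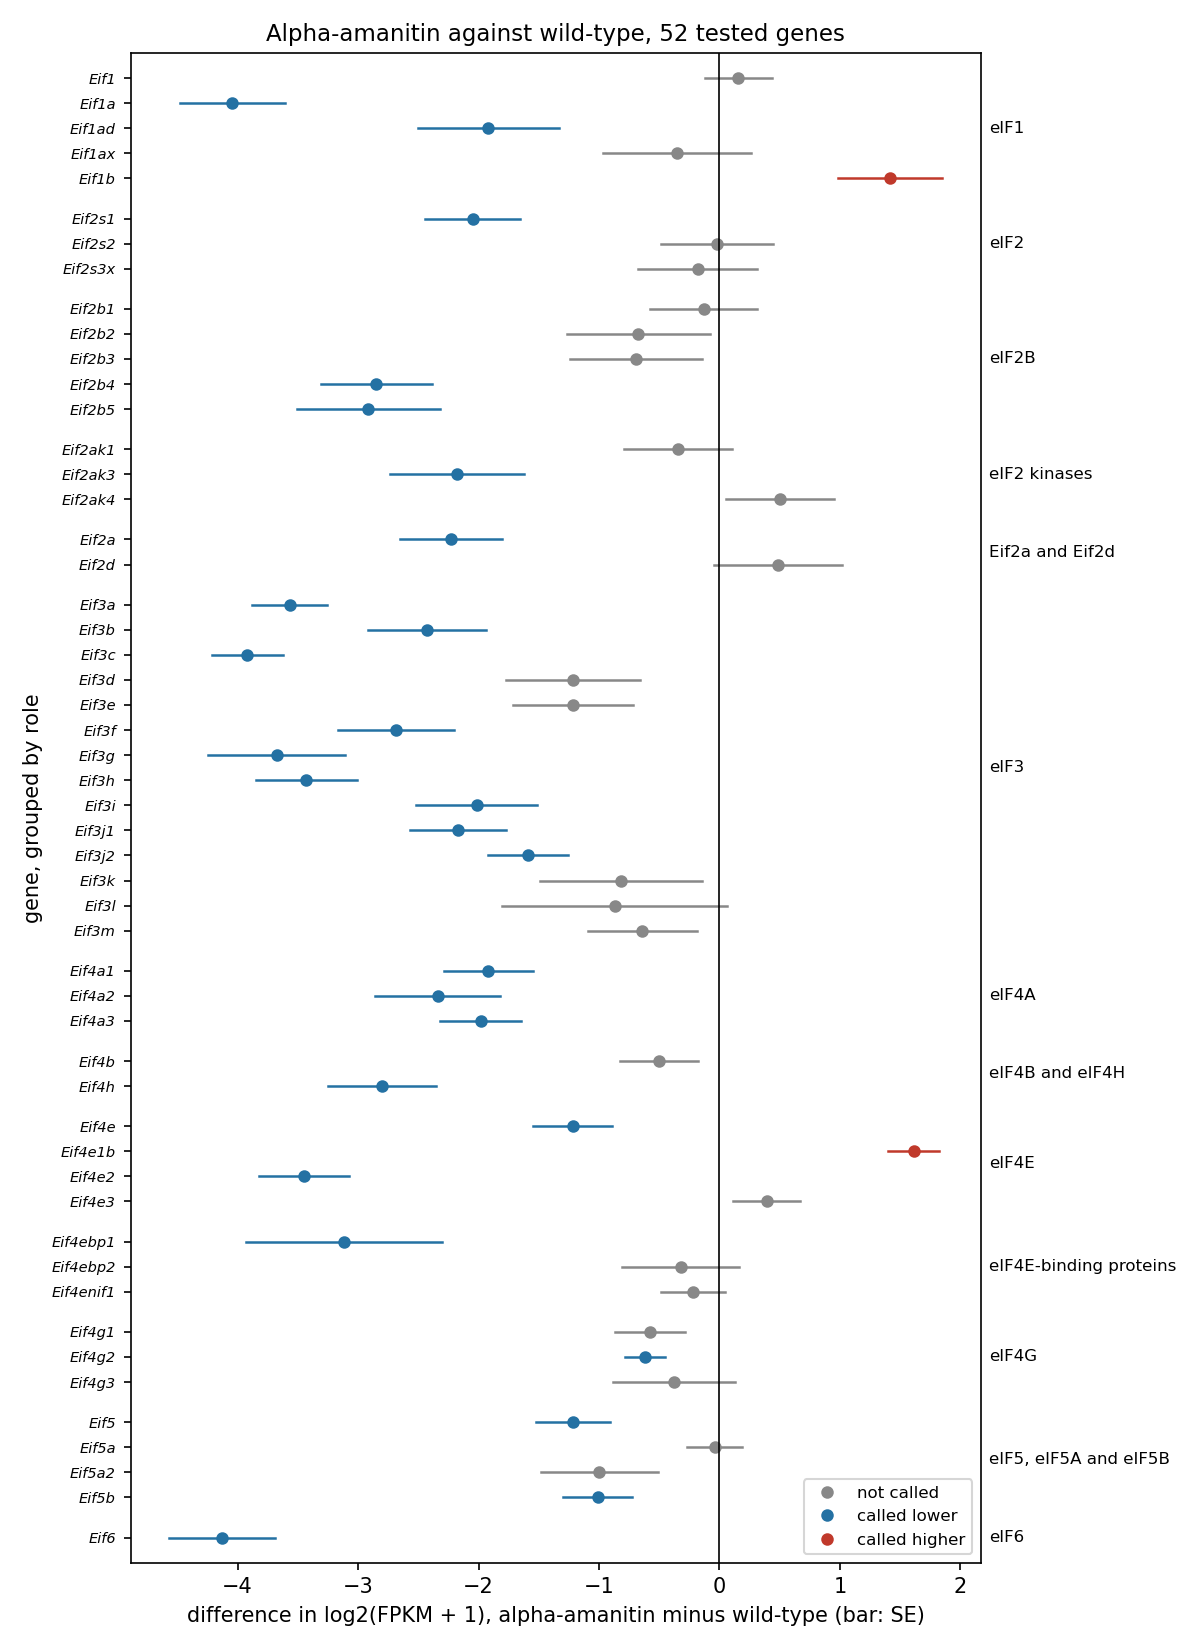
Difference in log2(FPKM + 1), alpha-amanitin minus wild-type, for the 52 tested members in order of role; points are estimates, bars 1 SE, and colours the limma call. The 27 genes called lower lie between -4.13 (Eif6) and -0.62 (Eif4g2), and the 2 called higher, Eif1b and Eif4e1b, at 1.42 and 1.61.

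Several facts of the libraries move with the treatment. Genes at 1 FPKM or more numbered 7977 and 7935 with alpha-amanitin and 10611 to 11228 in the other libraries. A list of 7 late 2-cell transcripts summed to 6.65 and 7.59 FPKM with alpha-amanitin and 182 to 222 FPKM in wild-type, and all 7 were found. A list of 8 oocyte transcripts, all 8 found, summed to 9199 to 10219 FPKM with alpha-amanitin and 3506 to 3887 FPKM in wild-type. Zbed3 made up 89.7% and 90.1% of that sum with alpha-amanitin and 83.8% to 86.3% in wild-type. The other 7 transcripts summed to 948 and 1009 FPKM with alpha-amanitin and 482 to 607 FPKM in wild-type. Bmp15 (463 and 487 FPKM with alpha-amanitin) and Oosp1 (319 and 329 FPKM) were the largest of these. Bmp15, Oosp1, Zp2 and Npm2 were higher in each alpha-amanitin library than in each wild-type one, while Gdf9, Zp3 and Nlrp5 overlapped. Lists of cumulus, sperm and blood markers summed to at most 9.54 FPKM in any library. The blood globins Hbb-bs and Hbb-bt, the sperm protamine Prm1 and the cumulus marker Inha were listed at 0 in all 9 libraries. Other genes of these lists were found. In blood, Hba-a1 reached 4.62 FPKM (wild-type replicate 1) and Cd68 6.39 FPKM (alpha-amanitin replicate 1). In sperm, Tnp1 reached 5.44 FPKM (wild-type replicate 3) and Odf1 4.21 FPKM (wild-type replicate 2). The cumulus marker Tnfaip6 reached 3.42 FPKM (wild-type replicate 1). The oviduct list summed to 0.00151 and 1.38 FPKM with alpha-amanitin and 22.9 to 65.0 FPKM in wild-type, most of it Epcam. The part of these differences in the members' values was not tested.

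Among the members whose symbol begins with Eif1, Eif1a and Eif1ad fell, Eif1b rose, and Eif1 and Eif1ax were not called. Eif1a, one of the genes for eIF1A, which helps eIF2 deliver the initiator tRNA, lies on chromosome 18. It was listed at 0 and at 0.383 FPKM in the alpha-amanitin libraries, against 12.2, 33.0 and 15.3 FPKM in wild-type. Its log2 difference was -4.05 ± 0.44 (SE; limma adjusted p = 6.78e-05). Eif1ax, the X-linked gene for a nearly identical eIF1A protein, had 2.98 and 16.0 FPKM with alpha-amanitin and 5.14, 9.84 and 16.4 FPKM in wild-type (log2 -0.35 ± 0.61, limma adjusted p = 0.700). The alpha-amanitin values of Eif1ax spread as wide as the wild-type ones, while those of Eif1a lay under every wild-type value. The ratio of Eif1a to Eif1ax FPKM was 0 and 0.0239 with alpha-amanitin, and 2.38, 3.36 and 0.933 in wild-type (exact permutation p = 0.2, two-sided, the smallest that 2 libraries against 3 can give).

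Eif1 and Eif1b encode near-identical forms of eIF1, which guards the choice of start codon. Eif1b had 12.3 and 19.0 FPKM with alpha-amanitin and 5.52, 5.06 and 4.79 FPKM in wild-type, so every alpha-amanitin value was over the wild-type ones. Its rise was 1.42 ± 0.43 on the log2 scale (limma adjusted p = 0.0305). Eif1 had 79.2 and 51.6 FPKM with alpha-amanitin, against 53.4, 74.6 and 47.1 FPKM in wild-type, and the groups overlapped (log2 0.16 ± 0.28). Eif1ad, which encodes a protein with an eIF1A-like domain, had 0.271 and 2.57 FPKM with alpha-amanitin and 10.4, 3.86 and 8.40 FPKM in wild-type (log2 -1.92 ± 0.59, limma adjusted p = 0.0313). The authors' counting could split reads between such near-identical copies. The call of Eif1b was lost without any 1 of the 5 libraries compared, at 1.12 to 1.71 and a limma adjusted p of 0.0502 to 0.190. That of Eif1ad was lost without wild-type replicate 1 (-1.67), wild-type replicate 3 (-1.81) or alpha-amanitin replicate 1 (-1.17, limma adjusted p = 0.233).

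The eIF2 subunits did not move as a block. Eif2s1, the alpha subunit whose phosphorylation turns initiation down, fell to 1.56 and 3.73 FPKM with alpha-amanitin, against 10.6, 14.3 and 15.8 FPKM in wild-type. The difference was -2.05 ± 0.39 on the log2 scale (limma adjusted p = 0.00282), and no alpha-amanitin value reached the lowest wild-type one. Eif2s2, the beta subunit, had 11.4 and 10.9 FPKM with alpha-amanitin and 19.5, 5.32 and 13.4 FPKM in wild-type. Its alpha-amanitin values lay inside the wild-type range (log2 -0.02 ± 0.47, 95% interval -1.05 to 1.01). Eif2s3x, the X-linked gamma subunit that binds GTP and the tRNA, was low throughout, at 0.520 and 2.61 FPKM with alpha-amanitin and 1.39, 2.21 and 1.44 FPKM in wild-type (log2 -0.18 ± 0.49). The ratio of beta to alpha subunit FPKM was 7.29 and 2.93 with alpha-amanitin and 1.84, 0.371 and 0.849 in wild-type, without overlap (exact permutation p = 0.2, two-sided, the smallest possible).

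**Figure D2:**
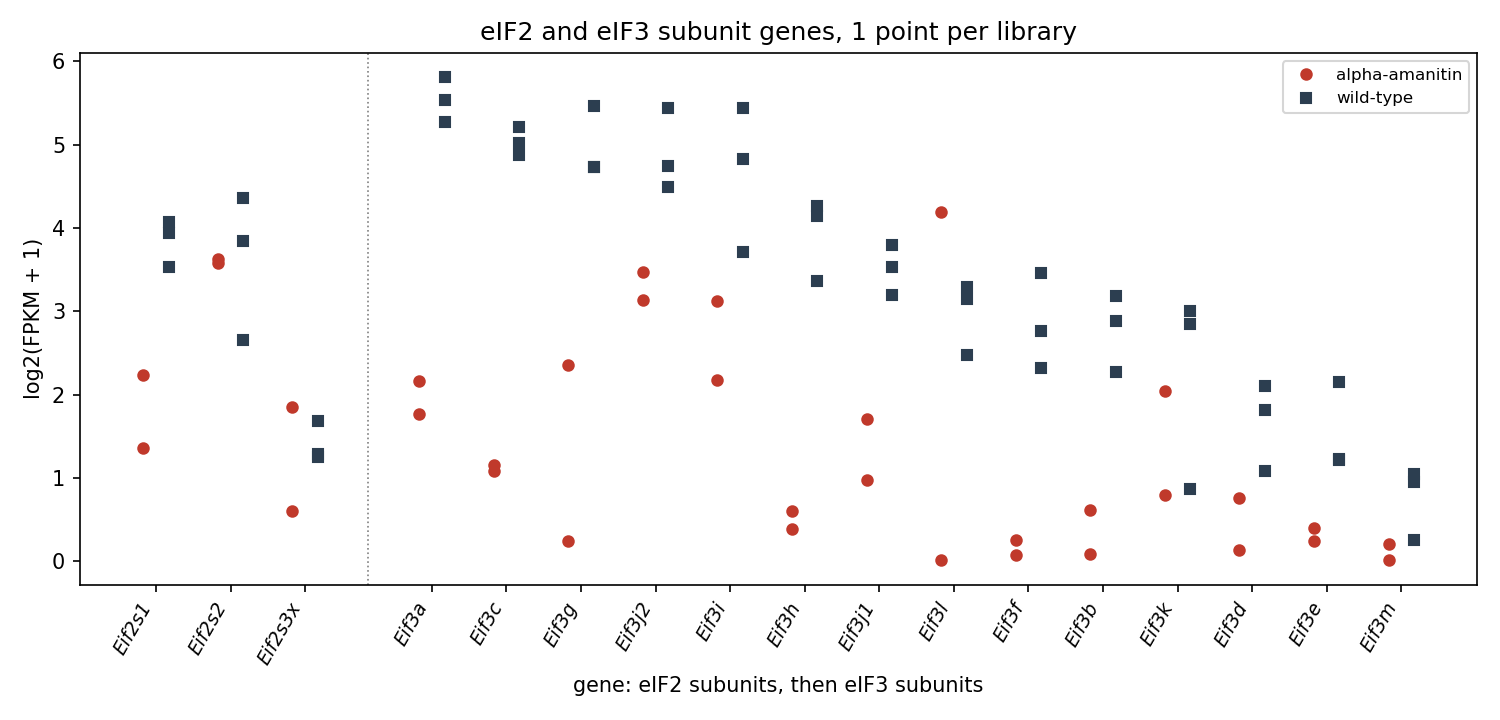
Levels as log2(FPKM + 1) of the 3 eIF2 and 14 eIF3 subunit genes, 1 point per library, alpha-amanitin left of wild-type for each gene and genes ordered by wild-type mean. Eif2s2 and Eif2s3x overlap between groups, while Eif3a and Eif3c lie far lower with alpha-amanitin and Eif3l has 1 high and 1 low alpha-amanitin library.

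The guanine nucleotide exchange factor eIF2B recharges eIF2 with GTP. Its genes Eif2b4 and Eif2b5 fell, and Eif2b1, Eif2b2 and Eif2b3 were not called. Eif2b4 was at 0.434 FPKM and listed at 0 with alpha-amanitin, against 6.27, 9.28 and 7.60 FPKM in wild-type (log2 -2.85 ± 0.46, limma adjusted p = 0.00102). Eif2b5, the catalytic subunit, had 0.00566 and 0.391 FPKM with alpha-amanitin and 3.85, 14.7 and 8.33 FPKM in wild-type (log2 -2.91 ± 0.59, limma adjusted p = 0.00391). Both were under 1 FPKM in each alpha-amanitin library. Eif2b1 had 16.0 and 21.2 FPKM with alpha-amanitin and 27.5, 12.9 and 23.3 FPKM in wild-type (log2 -0.13 ± 0.44). Eif2b2 differed more between its own alpha-amanitin libraries, 32.3 and 5.59 FPKM, than between the group means, with 29.1, 14.3 and 27.4 FPKM in wild-type; without alpha-amanitin replicate 1 it was called lower (log2 -1.84, limma adjusted p = 0.0220).

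Kinases that phosphorylate eIF2 alpha under stress were present at modest levels. Eif2ak3 (PERK, the sensor of unfolded protein in the endoplasmic reticulum) fell to 3.32 and 0.124 FPKM with alpha-amanitin, against 6.91, 11.5 and 9.03 FPKM in wild-type (log2 -2.18 ± 0.56, limma adjusted p = 0.0138). That call was lost without alpha-amanitin replicate 2 (-1.21, limma adjusted p = 0.128). Eif2ak4 (GCN2, the sensor of amino acid lack) had 4.66 and 6.76 FPKM with alpha-amanitin, each above the wild-type values of 3.42, 3.42 and 4.22 FPKM, but it was not called (log2 0.50 ± 0.45) except after quantile normalization (1.44, limma adjusted p = 0.0359). Eif2ak1 (HRI, the heme-regulated kinase) had 5.17 and 14.5 FPKM with alpha-amanitin and 13.4, 10.3 and 10.8 FPKM in wild-type, with overlap. Eif2ak2 (PKR, the sensor of double-stranded RNA) was at most 0.527 FPKM in any of the 9 libraries and was not tested.

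Eif2a and Eif2d encode alternative carriers of initiator tRNA that are not subunits of eIF2. Eif2a fell to 8.26 and 2.74 FPKM with alpha-amanitin, against 29.3, 21.7 and 29.6 FPKM in wild-type (log2 -2.23 ± 0.42, limma adjusted p = 0.00267). Eif2d had 3.93 and 17.1 FPKM with alpha-amanitin and 5.88, 6.43 and 4.98 FPKM in wild-type, so its alpha-amanitin libraries lay on either side of the wild-type range (log2 0.49 ± 0.53). Eif2a overlaps Serp1, Eif2d overlaps Rassf5 and Eif2b4 overlaps Snx17, and whether counting used strand is not given in the sources used here.

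Most genes of the scaffold factor eIF3 fell. Of its 14 genes, which all passed the filter, 9 were called lower with alpha-amanitin and 0 higher, where 25.1% of all genes tested were lower and 4.31% higher. Their median log2 difference was -2.09, beside -0.56 over all genes tested. All 14 estimates were below 0, as were 8647 of the 13137 over all genes, and 12 had no overlap between groups on the lower side, where 41.1% of all genes had none. The filter bears on these counts. Eif3b, Eif3d, Eif3e, Eif3f, Eif3h and Eif3m were under 1 FPKM in each alpha-amanitin library and passed only through the other groups. For them, Eif3b, Eif3f and Eif3h among the called, the lower side was partly set by the filter. The median FPKM of the 14 genes was 0.714 and 0.771 with alpha-amanitin and 7.82, 11.4 and 8.48 in wild-type. Genes under 1 FPKM numbered 9 and 7 with alpha-amanitin and 2, 0 and 1 in wild-type. Relative to the median of all genes, the eIF3 median was -1.54 as deposited and -1.34 after quantile normalization.

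Core subunits and the scanning subunit eIF3g were among those that fell. Eif3a, the largest subunit and part of the core, had 3.50 and 2.41 FPKM with alpha-amanitin and 37.5, 55.2 and 45.4 FPKM in wild-type (log2 -3.57 ± 0.31, limma adjusted p = 1.91e-05). Eif3c, its partner in the core, had 1.12 and 1.23 FPKM with alpha-amanitin, against 31.4, 36.2 and 28.4 FPKM in wild-type (log2 -3.92 ± 0.30, limma adjusted p = 7.81e-06). The wild-type mean of Eif3c was 27.3 times the alpha-amanitin mean. Eif3g, which binds RNA and works in scanning, was at 0.182 and 4.14 FPKM with alpha-amanitin and 25.6, 43.1 and 25.7 FPKM in wild-type (log2 -3.68 ± 0.57, limma adjusted p = 0.000731). In each of these genes the highest alpha-amanitin value was far under the lowest wild-type value. Eif3b, the subunit that binds eIF3i and eIF3g, had 0.539 and 0.0595 FPKM with alpha-amanitin and 6.37, 3.82 and 8.11 FPKM in wild-type (log2 -2.43 ± 0.49, limma adjusted p = 0.00393).

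Further subunits fell as well. Eif3h had 0.522 and 0.310 FPKM with alpha-amanitin and 9.28, 18.2 and 16.8 FPKM in wild-type (log2 -3.43 ± 0.42, limma adjusted p = 0.000152). Eif3f, which with eIF3h carries the MPN domains of the complex, had 0.0532 and 0.192 FPKM with alpha-amanitin and 3.99, 10.04 and 5.80 FPKM in wild-type (log2 -2.69 ± 0.48, limma adjusted p = 0.00189). Both were under 1 FPKM in each alpha-amanitin library. Eif3i, a WD-repeat subunit, kept more, with 3.51 and 7.70 FPKM with alpha-amanitin and 12.2, 27.4 and 42.5 FPKM in wild-type (log2 -2.02 ± 0.50, limma adjusted p = 0.0123); its call was lost without alpha-amanitin replicate 1 (-1.54, limma adjusted p = 0.0997). Eif3j1 and Eif3j2 are near-identical copies for the loosely bound subunit eIF3j, between which the authors' counting could split reads. Eif3j1 had 0.962 and 2.26 FPKM with alpha-amanitin and 10.6, 12.8 and 8.15 FPKM in wild-type (log2 -2.17 ± 0.40, limma adjusted p = 0.00221). Eif3j2 had 7.79 and 10.1 FPKM with alpha-amanitin and 25.8, 42.3 and 21.6 FPKM in wild-type (log2 -1.59 ± 0.33, limma adjusted p = 0.00460).

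The other eIF3 genes were not called, and their levels were low or uneven. Eif3d, a subunit that can itself bind the mRNA cap, had 0.692 and 0.0958 FPKM with alpha-amanitin and 2.52, 3.29 and 1.11 FPKM in wild-type (log2 -1.22 ± 0.56, limma adjusted p = 0.127). Eif3e had 0.184 and 0.317 FPKM with alpha-amanitin and 1.35, 3.46 and 1.32 FPKM in wild-type (log2 -1.22 ± 0.50, limma adjusted p = 0.0917). Both kept their groups apart without reaching the threshold, and Eif3e did reach it with a pseudocount of 0.1 (-2.50, limma adjusted p = 0.0383). Eif3m was at 1.06 FPKM or less in every wild-type library, and Eif3k had 0.736 and 3.14 FPKM with alpha-amanitin and 0.831, 6.18 and 7.04 FPKM in wild-type. Eif3l split the alpha-amanitin libraries, with 17.3 and 0.00873 FPKM, against 4.59, 7.87 and 8.80 FPKM in wild-type (log2 -0.87 ± 0.93). Without alpha-amanitin replicate 1, Eif3l was called lower (-2.96, limma adjusted p = 0.00505).

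The eIF4A genes, which include those of the helicases that unwind the mRNA leader, all fell. Eif4a1 had 6.43 and 7.59 FPKM with alpha-amanitin and 19.7, 45.3 and 27.8 FPKM in wild-type (log2 -1.92 ± 0.37, limma adjusted p = 0.00293). Its paralog Eif4a2 had 19.9 and 4.32 FPKM with alpha-amanitin and 36.3, 73.8 and 53.5 FPKM in wild-type (log2 -2.34 ± 0.52, limma adjusted p = 0.00661), and this call was lost without alpha-amanitin replicate 2 (-1.35, limma adjusted p = 0.0525). Eif4a3, a member of the exon junction complex rather than of eIF4F, had 5.92 and 6.82 FPKM with alpha-amanitin and 22.3, 39.8 and 24.8 FPKM in wild-type (log2 -1.98 ± 0.34, limma adjusted p = 0.00141). The FPKM of Eif4a3 lay outside its own deposited bounds in 7 libraries. Of the helicase's cofactors, Eif4h fell to 0.527 and 0.255 FPKM with alpha-amanitin, against 6.59, 10.98 and 8.83 FPKM in wild-type (log2 -2.80 ± 0.45, limma adjusted p = 0.000948). Eif4b had 11.5 and 18.3 FPKM with alpha-amanitin and 16.3, 23.1 and 24.8 FPKM in wild-type, with overlap (log2 -0.50 ± 0.32). A test of the difference between Eif4h and Eif4b was not made.

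The 4 genes of the cap-binding eIF4E family went different ways. Eif4e1b, on chromosome 13 from 54783998 to 54788459 (mm10), rose, Eif4e and Eif4e2 fell, and Eif4e3 was not called. Eif4e1b had 224 and 251 FPKM with alpha-amanitin and 70.9, 74.7 and 85.6 FPKM in wild-type. The mean with alpha-amanitin was 3.08 times the wild-type mean (237 ± 19.2 and 77.1 ± 7.63 FPKM, SD, n = 2 and 3), and the groups were far apart. Its log2 difference was 1.61 ± 0.21 (limma adjusted p = 0.000266) and stayed between 1.32 and 1.77, with an adjusted p of at most 0.00593, under all 17 alternative settings. Among the 55 members it had the second highest mean FPKM with alpha-amanitin, and in wild-type its rank was 6.

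Eif4e, which encodes the general cap-binding protein, had 16.9 and 15.03 FPKM with alpha-amanitin and 27.5, 53.6 and 38.4 FPKM in wild-type. The fall was 1.22 on the log2 scale with an SE of 0.33 (limma adjusted p = 0.0174). That call was lost without alpha-amanitin replicate 1 (-1.30, limma adjusted p = 0.0512) or replicate 2 (-1.14, limma adjusted p = 0.0846). Eif4e2, whose protein binds the cap in complexes that repress translation, had 1.06 and 0.465 FPKM with alpha-amanitin and 13.5, 22.5 and 18.9 FPKM in wild-type (log2 -3.45 ± 0.37, limma adjusted p = 7.10e-05). Eif4e3 had 81.8 and 76.9 FPKM with alpha-amanitin and 45.9, 81.1 and 58.3 FPKM in wild-type (log2 0.39 ± 0.28, 95% interval -0.22 to 1.01). It overlaps another gene of the files, Gm20696, on the same strand.

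As a share of the summed FPKM of the 4 genes, Eif4e1b made up 69.2% and 73.1% with alpha-amanitin. The share was 44.9%, 32.2% and 42.5% in wild-type. Eif4e made up 5.23% and 4.38% with alpha-amanitin and 17.4%, 23.1% and 19.1% in wild-type. Eif4e1b was the most abundant of the family in every alpha-amanitin library, while in wild-type replicate 2 Eif4e3 exceeded it. The ratio of Eif4e1b to Eif4e FPKM was 13.2 and 16.7 with alpha-amanitin and 2.58, 1.39 and 2.23 in wild-type (exact permutation p = 0.2, two-sided, the smallest possible).

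**Figure D3:**
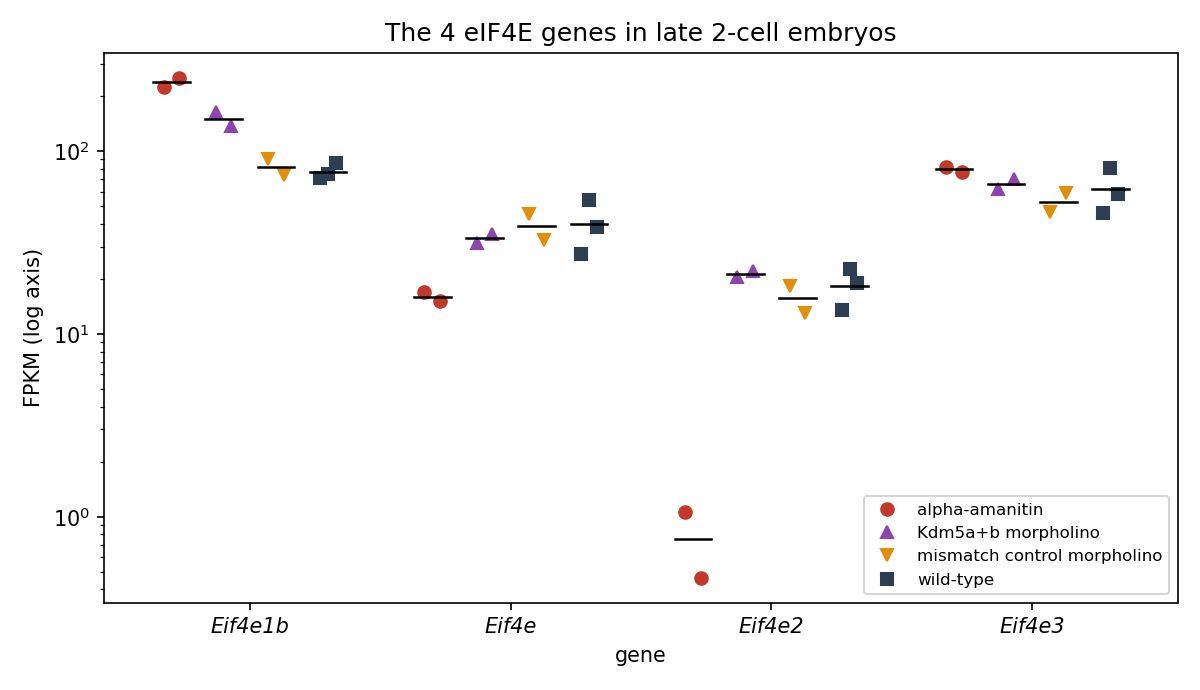
FPKM on a log axis of the 4 eIF4E genes in each library, 1 point per library and a line at each group mean, with alpha-amanitin, Kdm5a+b morpholino, mismatch control morpholino and wild-type from left to right. Eif4e1b is at 224 and 251 FPKM with alpha-amanitin, while wild-type lies between 70.9 and 85.6 FPKM; Eif4e2 is at 1.06 and 0.465 FPKM with alpha-amanitin.

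Of the genes for proteins that bind eIF4E, Eif4ebp1 fell and Eif4enif1 and Eif4ebp2 were not called. Eif4enif1, which encodes the eIF4E transporter 4E-T found in RNP granules with stored mRNA, had 219.8 and 221 FPKM with alpha-amanitin and 185, 378 and 242 FPKM in wild-type. The groups overlapped (log2 -0.22 ± 0.27, 95% interval -0.81 to 0.37). Eif4ebp1, an inhibitor of cap binding that mTOR releases by phosphorylation, was at 0.336 FPKM and listed at 0 with alpha-amanitin, and at 13.4, 21.6 and 2.08 FPKM in wild-type (log2 -3.11 ± 0.81, limma adjusted p = 0.0152). Its wild-type values spread widely, and the call was lost without alpha-amanitin replicate 1 (-3.32, limma adjusted p = 0.0518) or replicate 2 (-2.91, limma adjusted p = 0.0858). Eif4ebp2 had 11.8 and 16.4 FPKM with alpha-amanitin and 20.9, 10.7 and 24.4 FPKM in wild-type, with overlap. Eif4ebp3 reached at most 1.30 FPKM in any library and was not tested.

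The eIF4G scaffolds, which join the cap-binding protein, the helicase and eIF3, differed by -0.62 to -0.38 on the log2 scale, and 1 of 3 was called. Eif4g2, also called DAP5, which lacks the eIF4E-binding part, had the highest mean of all members in alpha-amanitin and wild-type embryos alike. It had 238 and 264 FPKM with alpha-amanitin and 383, 418 and 357 FPKM in wild-type (log2 -0.62 ± 0.17, limma adjusted p = 0.0180). The call was lost without alpha-amanitin replicate 1 (-0.54, limma adjusted p = 0.137) or replicate 2 (-0.70, limma adjusted p = 0.0662), and the FPKM was outside its own deposited bounds in all 9 libraries. Eif4g1 had 39.4 and 29.4 FPKM with alpha-amanitin and 52.2, 59.9 and 43.1 FPKM in wild-type, without overlap but not called (log2 -0.58 ± 0.29, limma adjusted p = 0.166). Eif4g3 had 8.85 and 12.2 FPKM with alpha-amanitin and 24.3, 11.8 and 9.01 FPKM in wild-type. Over the eIF4 genes as a whole, 15 of 16 were tested, of which 8 fell (25.1% of all genes), 1 rose (4.31% of all genes) and 6 were not called. Their median log2 difference was -0.62, near the -0.56 of all genes tested.

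The factors of subunit joining and the later steps were mixed. Eif5, which makes eIF2 hydrolyse its GTP, fell to 42.4 and 39.7 FPKM with alpha-amanitin, against 72.6, 138 and 90.1 FPKM in wild-type (log2 -1.22 ± 0.31, limma adjusted p = 0.0124). Eif5b, the GTPase that joins the ribosomal subunits, fell to 12.8 and 19.4 FPKM with alpha-amanitin, against 31.1, 37.4 and 30.1 FPKM in wild-type (log2 -1.01 ± 0.29, limma adjusted p = 0.0226). The call of Eif5 was lost without alpha-amanitin replicate 2 (-1.17, limma adjusted p = 0.0663), and that of Eif5b without wild-type replicate 2 (-0.92, limma adjusted p = 0.0537) or alpha-amanitin replicate 1 (-0.73, limma adjusted p = 0.150). Eif5a, whose hypusine-bearing protein helps elongation and termination, had 85.0 and 121 FPKM with alpha-amanitin and 111, 99.8 and 102 FPKM in wild-type (log2 -0.04 ± 0.23, 95% interval -0.55 to 0.47). Its paralog Eif5a2 was at 2.28 FPKM or less in each of those libraries.

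Eif6, which keeps the large ribosomal subunit from joining too early and takes part in its assembly, fell. It had 8.36 and 2.69 FPKM with alpha-amanitin and 62.4, 158 and 107 FPKM in wild-type (log2 -4.13 ± 0.44, limma adjusted p = 6.25e-05). By mean FPKM its rank among the 55 members was 28 with alpha-amanitin and 3 in wild-type. The deposited FPKM of Eif6 lay outside its own bounds in 7 libraries, and the gene overlaps Gm16098.

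The members at the top of the abundance order also differed in how much of the total they held. Eif4g2, Eif4enif1 and Eif4e1b together made up 54.2% and 56.0% of the summed FPKM of all members with alpha-amanitin, and 38.9%, 38.1% and 37.6% in wild-type. That sum was 1257 and 1315 FPKM with alpha-amanitin, against 1641, 2287 and 1821 FPKM in wild-type. In mean FPKM with alpha-amanitin, Eif4g2 (251 ± 19.0), Eif4e1b (237 ± 19.2) and Eif4enif1 (220.4 ± 0.822, SD, n = 2 each) lay close together. Neighbouring means in that order differed by less than the larger SD of the pair. The libraries of Eif4g2 and Eif4e1b overlapped, while both of Eif4e1b (224 and 251) were above both of Eif4enif1 (219.8 and 221). Eif5a followed with 103 ± 25.2 FPKM and Eif4e3 with 79.4 ± 3.49 FPKM. These means too differed by less than the larger SD, though both Eif5a libraries (85.0 and 121) were above both Eif4e3 ones (81.8 and 76.9). In wild-type the order was Eif4g2 (386 ± 30.7), Eif4enif1 (268 ± 99.3), Eif6 (109 ± 47.7), Eif5a (104 ± 6.04) and Eif5 (100.3 ± 34.0 FPKM, SD, n = 3 each), and Eif6, Eif5a and Eif5 were within their spread. The libraries of Eif4g2 (357 to 418 FPKM) and Eif4enif1 (185 to 378 FPKM) overlapped there as well.

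Genes that act with these factors were taken from a list of 30 partners in cap-dependent recruitment and its control, all present in the files and 29 tested. With alpha-amanitin, 10 fell (25.1% of all genes) and 3 rose (4.31% of all genes), with a median log2 difference of -0.80, beside -0.56 over all genes tested. Pabpc1, the poly(A)-binding protein that contacts eIF4G, had 3.18 and 3.53 FPKM with alpha-amanitin and 89.4, 151 and 159 FPKM in wild-type (log2 -4.90 ± 0.30, limma adjusted p = 3.38e-06). Pabpc1l, the embryonic form found in oocytes, had 20.6 and 12.3 FPKM with alpha-amanitin and 4.68, 4.15 and 0.928 FPKM in wild-type (log2 2.14 ± 0.65, limma adjusted p = 0.0310). The somatic and oocyte forms of the poly(A)-binding protein lay on opposite sides of the wild-type level, as did Eif4e and Eif4e1b. The Pabpc1l call was lost without wild-type replicate 3 or either alpha-amanitin library, at 1.65 to 2.49 and a limma adjusted p of 0.0678 to 0.174.

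The phosphatase subunits that undo eIF2 alpha phosphorylation both fell. Ppp1r15a (GADD34) had 6.81 and 1.59 FPKM with alpha-amanitin and 36.7, 44.0 and 40.6 FPKM in wild-type (log2 -3.20 ± 0.42, limma adjusted p = 0.000266). Ppp1r15b (CReP) had 0.779 and 0.969 FPKM with alpha-amanitin and 26.8, 32.5 and 29.6 FPKM in wild-type (log2 -4.03 ± 0.30, limma adjusted p = 7.68e-06). Denr, which forms with MCTS1 a factor for reinitiation and ribosome recycling, was at 0.290 FPKM and listed at 0 with alpha-amanitin, against 8.83, 10.1 and 2.51 FPKM in wild-type (log2 -2.68 ± 0.56, limma adjusted p = 0.00447). In Ppp1r15a, Ppp1r15b and Denr every alpha-amanitin value was under every wild-type value. Mcts1 was at 0.207 FPKM and listed at 0 with alpha-amanitin, and at 3.92, 7.71 and 1.73 FPKM in wild-type (log2 -2.15 ± 0.57, limma adjusted p = 0.0164); that call was lost without either alpha-amanitin library (limma adjusted p = 0.0604 and 0.0967). Its close copy Mcts2 was listed at 0 and at 0.482 FPKM with alpha-amanitin, against 6.90, 5.09 and 13.8 FPKM in wild-type (log2 -2.88 ± 0.48, limma adjusted p = 0.00123).

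Larp1, Rps6kb1 and the genes of both eIF4E kinases fell, and Deptor and Gigyf2 rose. Larp1, which binds the mRNAs of ribosomal proteins downstream of mTOR, had 1.44 and 1.09 FPKM with alpha-amanitin and 17.1, 24.2 and 26.8 FPKM in wild-type (log2 -3.37 ± 0.35, limma adjusted p = 5.97e-05). Rps6kb1 (S6 kinase) had 20.8 and 13.5 FPKM with alpha-amanitin and 93.7, 92.6 and 77.3 FPKM in wild-type (log2 -2.32 ± 0.31, limma adjusted p = 0.000312). These were far apart between groups. The eIF4E kinase gene Mknk1 had 1.32 and 0.596 FPKM with alpha-amanitin and 8.39, 17.03 and 21.3 FPKM in wild-type (log2 -3.02 ± 0.49, limma adjusted p = 0.00102). Mknk2 had 0.996 and 1.64 FPKM with alpha-amanitin and 24.5, 7.92 and 18.2 FPKM in wild-type (log2 -2.83 ± 0.47, limma adjusted p = 0.00118). Neither kinase gene reached its lowest wild-type level in an alpha-amanitin library. Deptor, an mTOR inhibitor, rose to 42.4 and 52.2 FPKM with alpha-amanitin, against 20.8, 30.1 and 21.9 FPKM in wild-type (log2 0.95 ± 0.28, limma adjusted p = 0.0295). Gigyf2, a partner of eIF4E2, rose to 56.9 and 77.0 FPKM with alpha-amanitin, against 31.1, 40.3 and 38.7 FPKM in wild-type (log2 0.84 ± 0.28, limma adjusted p = 0.0416). The call of Deptor was lost without 4 of the 9 libraries (wild-type replicates 1 and 3 and both alpha-amanitin libraries) and that of Gigyf2 without 6 (the same libraries and both Kdm5a+b ones), at log2 differences of 0.80 to 1.10 and 0.63 to 1.06 over the 9 fits that each left out 1 library.

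Of 15 genes listed under elongation and termination, 14 were tested, of which 4 fell with alpha-amanitin and 0 rose. The share that fell was close to the 25.1% of all genes. The median log2 difference was -0.93, beside -0.56 over all genes tested. Eef2, the translocase, had 5.32 and 13.6 FPKM with alpha-amanitin and 36.9, 27.1 and 54.4 FPKM in wild-type (log2 -2.02 ± 0.40, limma adjusted p = 0.00366). Eef1e1 was listed by its symbol and is not itself an elongation factor. It had 0.193 and 0.496 FPKM with alpha-amanitin and 3.81, 6.22 and 3.91 FPKM in wild-type (log2 -2.05 ± 0.45, limma adjusted p = 0.00594). Gspt1, the gene of release factor eRF3a, had 4.68 and 9.10 FPKM with alpha-amanitin and 14.3, 32.5 and 26.7 FPKM in wild-type (log2 -1.68 ± 0.46, limma adjusted p = 0.0189). All 3 kept their groups apart. Eef1b2, a subunit of the exchange factor of eEF1A, had 7.64 and 6.49 FPKM with alpha-amanitin and 11.6, 29.1 and 15.1 FPKM in wild-type (log2 -1.18 ± 0.40, limma adjusted p = 0.0460). Its call was lost without 8 of the 9 libraries, all but wild-type replicate 1, with a limma adjusted p of up to 0.169. Gspt1 lost its call without wild-type replicates 2 or 3 or alpha-amanitin replicate 1 (-1.26, limma adjusted p = 0.136).

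With the Kdm5a+b morpholinos, no initiation factor gene was called against the mismatch control. Of the targeted genes, Kdm5a had 19.5 and 15.3 FPKM with the Kdm5a+b morpholinos and 12.8 and 9.44 FPKM in mismatch controls. Kdm5b had 38.1 and 27.6 FPKM with them and 55.3 and 39.6 FPKM in mismatch controls. The RNA of Kdm5a was higher and that of Kdm5b lower in each Kdm5a+b library than in each control, and neither gene was called. Morpholinos act on translation or splicing and need not lower the RNA, so no label is checked by them. Of the 52 tested members 0 were called by limma, where 0.0% of all 13137 genes were called, and 1 had an unadjusted p under 0.05, where 3.15% of all genes did. The groups did not overlap in 20 members (33.3% of all genes), 11 lower (16.8% of all genes) and 9 higher (16.5% of all genes). The median difference was -0.10, and no member was called in any of the 17 alternatives. The smallest two-sided p that an exact permutation test of 2 libraries against 2 allows is 0.333.

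Eif4e1b was the member with the unadjusted p under 0.05. It had 162 and 137 FPKM with the Kdm5a+b morpholinos and 90.6 and 73.7 FPKM in mismatch controls. The mean with the Kdm5a+b morpholinos was 1.82 times the control mean, and the groups did not overlap. The log2 difference was 0.86 ± 0.23 (95% interval 0.34 to 1.37), with a limma adjusted p of 1.00 over all genes and of 0.506 to 1.00 over the 17 alternatives, in which the difference was 0.71 to 1.01. Its share of the summed eIF4E FPKM was 58.7% and 51.7% with the Kdm5a+b morpholinos and 45.2% and 41.3% in mismatch controls. The ratio to Eif4e was 5.16 and 3.86 with the Kdm5a+b morpholinos and 2.00 and 2.26 in mismatch controls (exact permutation p = 0.333, two-sided, the smallest possible). The oocyte marker list summed to 4205 and 4695 FPKM with the Kdm5a+b morpholinos and to 3976 and 4115 FPKM in mismatch controls, most of it Zbed3. Its other 7 transcripts summed to 621 and 630 FPKM with the Kdm5a+b morpholinos and 565 and 472 FPKM in mismatch controls. Of these, Gdf9, Zp3 and Oosp1 were higher in each Kdm5a+b library than in each control, and Zp2 and Npm2 overlapped. Bmp15 and Nlrp5 lay the other way. Bmp15 had 162 and 167 FPKM in Kdm5a+b morpholino embryos and 178 and 199 FPKM in mismatch controls. Nlrp5 had 20.3 and 17.9 FPKM in Kdm5a+b morpholino embryos and 23.0 and 22.1 FPKM in mismatch controls. The part of these transcripts in the Eif4e1b value was not tested.

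**Figure D4:**
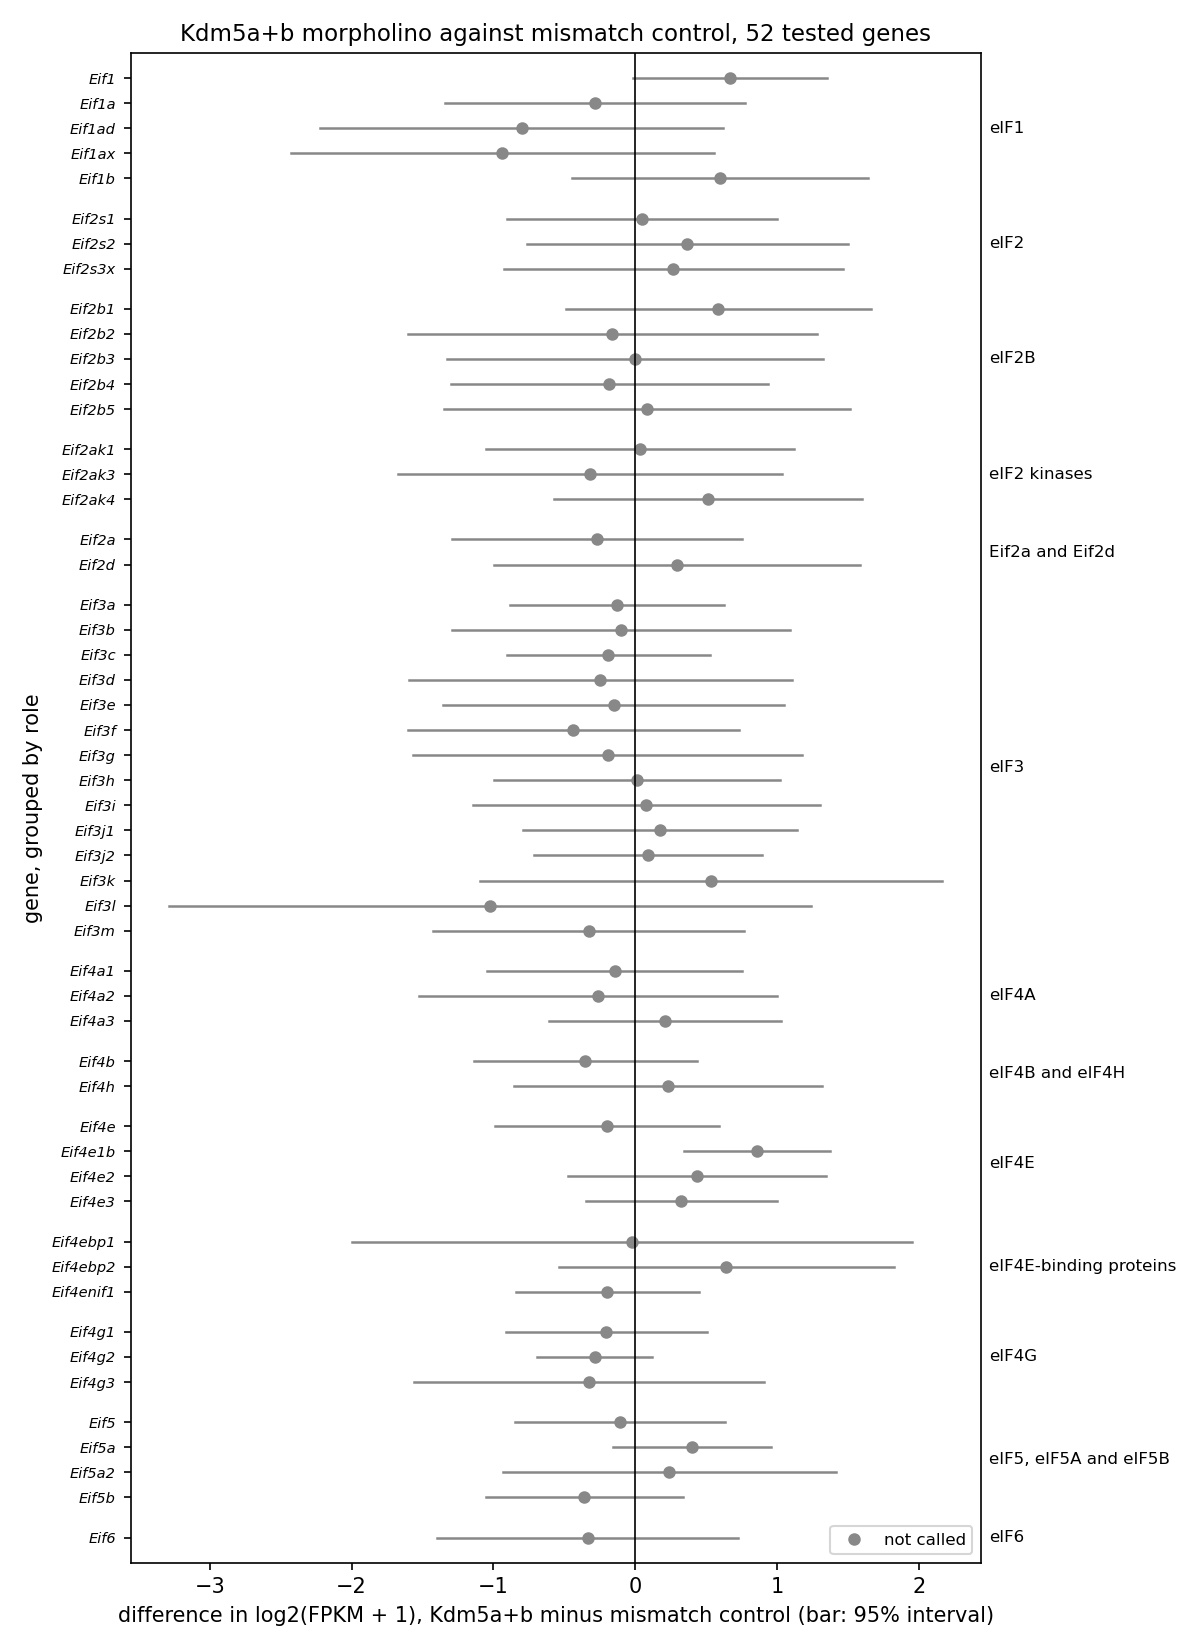
Difference in log2(FPKM + 1), Kdm5a+b morpholino minus mismatch control morpholino, for the 52 tested members in order of role; bars are 95% intervals. The interval of Eif4e1b (0.34 to 1.37) lies above 0, those of the other members include 0, and no member passed the adjusted threshold.

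No other eIF4E gene was called. Eif4e had 31.5 and 35.4 FPKM with the Kdm5a+b morpholinos and 45.2 and 32.6 FPKM in mismatch controls (log2 -0.20, 95% interval -0.99 to 0.59). Eif4e2 had 20.6 and 22.1 FPKM with the Kdm5a+b morpholinos and 18.3 and 13.1 FPKM in mismatch controls (log2 0.44, 95% interval -0.47 to 1.35). Eif4e3 had 62.1 and 70.2 FPKM with the Kdm5a+b morpholinos and 46.5 and 59.1 FPKM in mismatch controls (log2 0.33, 95% interval -0.35 to 1.00). Eif4e overlapped between the groups and Eif4e2 and Eif4e3 did not.

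In the eIF2 subunits the differences were small beside their intervals. Eif2s1 had 11.1 and 12.2 FPKM with the Kdm5a+b morpholinos and 10.6 and 11.9 FPKM in mismatch controls (log2 0.05, 95% interval -0.90 to 1.00). Eif2s2 had 14.1 and 15.7 FPKM with the Kdm5a+b morpholinos and 12.2 and 10.5 FPKM in mismatch controls (log2 0.37, 95% interval -0.76 to 1.5). Eif2s3x had 1.36 and 1.47 FPKM with the Kdm5a+b morpholinos and 1.12 and 0.883 FPKM in mismatch controls. The eIF3 genes had a median difference of -0.14, between -1.02 (Eif3l) and 0.53 (Eif3k). Eif3l had 3.77 and 3.45 FPKM with the Kdm5a+b morpholinos and 10.1 and 6.87 FPKM in mismatch controls, the lowest difference of the members, but its interval ran from -3.29 to 1.24.

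Of the members whose interval held 0, Eif1 had the lowest unadjusted limma p (0.0546). Eif5a (0.140) and Eif4g2 (0.151) came next, well above 0.05, and none of these was called. Eif1 had 76.1 and 85.4 FPKM with the Kdm5a+b morpholinos and 50.6 and 50.1 FPKM in mismatch controls (log2 0.67, 95% interval -0.02 to 1.35). Eif5a had 104 and 131 FPKM with the Kdm5a+b morpholinos and 87.7 and 88.8 FPKM in mismatch controls (log2 0.40, 95% interval -0.15 to 0.95). Eif4g2 had 360.3 and 318 FPKM with the Kdm5a+b morpholinos and 408 and 417 FPKM in mismatch controls (log2 -0.28, 95% interval -0.69 to 0.12). Eif1 and Eif5a were higher, and Eif4g2 lower, in each Kdm5a+b library than in each mismatch control. Eif1ax and Eif1ad lay the other way, at -0.94 and -0.80, with intervals that reached 0.55 and 0.62. The partner list and the elongation list had 0 genes called and 0 at an unadjusted p under 0.05.

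Injection of the mismatch control morpholinos alone was set against wild-type, a comparison that shares its control libraries with the Kdm5a+b comparison and its wild-type libraries with the alpha-amanitin one. Of the 52 tested members 0 were called by limma, where 0.0% of all genes were called, and 0 had an unadjusted p under 0.05, where 4.69% of all genes did. The groups did not overlap in 3 lower members (8.85% of all genes), Eif2s3x, Eif2ak1 and Eif5a, and 2 higher ones (9.26% of all genes), Eif4b and Eif5b. The median difference was -0.01. Eif4e1b had 90.6 and 73.7 FPKM in mismatch controls and 70.9, 74.7 and 85.6 FPKM in wild-type, with overlap (log2 0.09 ± 0.21, 95% interval -0.38 to 0.56). Eif5a had 87.7 and 88.8 FPKM in mismatch controls and 111, 99.8 and 102 FPKM in wild-type (log2 -0.24 ± 0.23), and Eif5b had 40.8 and 43.5 FPKM in mismatch controls and 31.1, 37.4 and 30.1 FPKM in wild-type (log2 0.35 ± 0.29). The partner and elongation lists had 0 genes called and 1 gene each at an unadjusted p under 0.05.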

How the data were processed

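Deposited tables of 9 RNA-seq libraries were used. Per the file headers they follow the layout of Cufflinks and hold FPKM with a lower and an upper bound per gene. The tools named for the series, per the submitters' processing notes and without roles, were BWA, Picard, Cufflinks, Trimmomatic, Bismark and SAMtools, and the build was mm10. Neither the RNA-seq aligner nor the annotation is given in the sources used here. Read counts were not used, so depth is unknown, and the number of libraries limits precision.

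Positions are those of the files, counted from 1. Genes at 1 FPKM or more in at least 2 of 9 libraries (13137) were tested as log2(FPKM + 1) with limma 3.58.1 in R 4.3.3, with group as the only term, eBayes with a trend and 5 residual degrees of freedom; p-values are two-sided with Benjamini-Hochberg adjustment over all genes tested. The fit was tested on simulated data. Ratios of a gene pair used exact permutation tests (scipy 1.17.1). Members, gene lists and the rule for named genes were chosen with earlier results of these data known. Values in every library were given for the eIF2 and eIF4E genes, for each member called and for called genes of the lists; other members were given by range or value where a comparison needed them. For each comparison 17 alternatives were run: a pseudocount of 0.1, no filter, quantile normalization, TPM, a replicate block, only the 2 groups compared, eBayes without the trend, array weights, and leaving out each library.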

Additional observations from a re-analysis of the deposited data

How the results depend on the processing

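For alpha-amanitin against wild-type, 29 initiation factor genes were called, and 20 to 30 under the 17 alternatives (22 to 29 when 1 library was left out). Quantile normalization gave 17 lower members, against 27 in the fit as reported, and 3 higher. Over all 13137 genes it gave 1806 lower and 1716 higher. The cause was not tested. Without the filter on low values 21 were called. Of the 29 called members, 15 kept their call under every alternative, Eif4e1b among them, and 14 lost it under 1 or more, most often Eif1ad and Eif1b, each under 7. No call changed sign. Replicate numbers are shared between groups, but same-numbered libraries did not deviate together (r = -0.0477 to 0.041 over same-numbered pairs), so the numbers were not taken to pair them. With a replicate block 25 members were called (24 lower, 1 higher). The Kdm5a+b and mismatch control comparisons gave 0 called members under all 17 alternatives, the replicate block (0 called) among them. FPKM holds no read depth, so a level near 0 cannot be given a counting limit.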
